A study of Equus caballus with 8 samples.

Results

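A set of 9 genes was chosen by symbol around pericellular plasminogen activation, and not all of them are part of that system. Of the 9, 8 were found among the 15266 named genes of the normalized count table. They are the activators PLAU and PLAT, the urokinase receptor PLAUR, the plasminogen-binding pair S100A10 and ANXA2, the serpin SERPINF1 with PLXDC2, a receptor proposed for its product, and the Kunitz-type inhibitor TFPI2. SERPINE2, the ninth, had no row under its symbol and was not analysed here. SERPINF1 was thus the 1 serpin described, and its product is a serpin that does not inhibit proteases. Mesenchymal stem cells of the bone marrow (BM-MSCs), plastic-adherent stromal cells grown from the sternal marrow of adult horses, were studied in 4 horses labelled D, J, L and W. From each horse 1 culture was kept in low-glucose DMEM with fetal bovine serum and basic fibroblast growth factor (untreated, n = 4), and 1 received human recombinant TGF-β2 at 1 ng/ml in addition (TGF-β2-treated, n = 4). The sample labels give the exposure as lasting from isolation to passage 3 or 4, and the methods give it as 3 passages. Each library is 1 culture of 1 horse, so that differences between horses cannot be told apart from differences between cultures.

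Plasminogen is a circulating proenzyme that is cut to plasmin, a broad serine protease that digests fibrin and matrix glycoproteins and activates other matrix proteases and latent growth factors. Urokinase and tissue-type plasminogen activator make the cut, cell-surface receptors hold the proteases beside their substrate, and serpins and Kunitz-type proteins block them by different mechanisms. In stromal cells and tendon fibroblasts the balance between activators and inhibitors is known to govern fibrin clearance, matrix turnover and cell migration.

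Between 39184554 and 57228675 reads were counted over named genes per library, and the lowest read count of any of the 8 genes in any library was 56, for TFPI2. A normalized count is a read count divided by a size factor of its library, and it is not divided by transcript length, so that levels are compared between libraries and not between genes. All 9 markers of mesenchymal stromal cells had rows and reads in every library, and their summed level was 676829 to 2536750 normalized counts in untreated and 2744100 to 4175680 in treated libraries. By limma, COL1A1 was called higher (log2 fold change 2.496, adjusted p = 0.0267) and THY1 lower (-2.21, adjusted p = 0.0494), and COL1A2 (1.67) was called higher with a block for the horse only (adjusted p = 0.0919 without and 0.0414 with it). Of 11 haematopoietic and macrophage markers 7 had rows. Their summed level was 499 to 2642 normalized counts in untreated and 380 to 732 in treated libraries, most of it CD68, while PTPRC stayed at or below 109.7, and SPI1 at or below 52.8 in every library. The 3 of 8 endothelial markers with rows summed to 32.5 to 395 in untreated and 501 to 966 in treated libraries, most of it ERG, and the 1 of 5 epithelial markers with a row, KRT8, lay at 0 to 0.942 and at 39.3 to 122. The part of such cells in the results below was not tested, and in these bulk libraries fewer cells of a type cannot be told apart from less RNA per cell. The untreated library of horse J stood apart most. Its mean correlation with the other untreated libraries was 0.932, against 0.951 to 0.957 for the others, and of all libraries it had the highest haematopoietic and the lowest mesenchymal sum. CD68 made up 2437 of the 2642 normalized counts of the first sum, and PTPRC (109.7) was also highest in this library of all 8. ITGB2 was at 71.4 and ITGAM at 20.9 there, whereas CSF1R and SPI1 were at 1.35 and CD163 at 0. The second sum was low through COL1A1 and COL1A2, with THY1 the lowest of the untreated libraries, whereas ENG and NT5E were highest in this library of all 8.

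The comparison asked how prolonged TGF-β2 treatment changes the transcripts of secreted and cell-surface proteolysis genes in BM-MSCs. PLAUR rose 2.75-fold as a ratio of mean normalized counts, while PLAU fell 2.55-fold, S100A10 3.65-fold and TFPI2 3.11-fold. SERPINF1 was 2.56-fold lower in mean, and its call depended on how the horse was treated in the model. PLAT, PLXDC2 and ANXA2 were not called. The test was limma on log2(normalized count + 1) across the 14907 genes that reached 10 normalized counts in 4 or more libraries, and all 8 genes passed this filter. Genes were called where the p adjusted by Benjamini-Hochberg was under 0.05 and the log2 fold change was past 1 in either direction. By this rule 1 of the 8 genes was called higher and 3 were called lower, where 5.59% of all tested genes were called higher and 5.87% lower. With a block for the horse, which pairs the libraries of each horse, 1 was called higher and 4 lower, against 6.83% and 7.31% of all tested genes. The groups did not overlap for 4 of the 8 genes, PLAU, PLAUR, S100A10 and ANXA2, and for 27.8% of all tested genes. For PLAU the margin was narrow, 18012 normalized counts in the untreated against 17915 in the treated library of horse J. The median log2 fold change was -0.98 over the 8 genes and 0.01 over all tested genes.

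**Figure D1:**
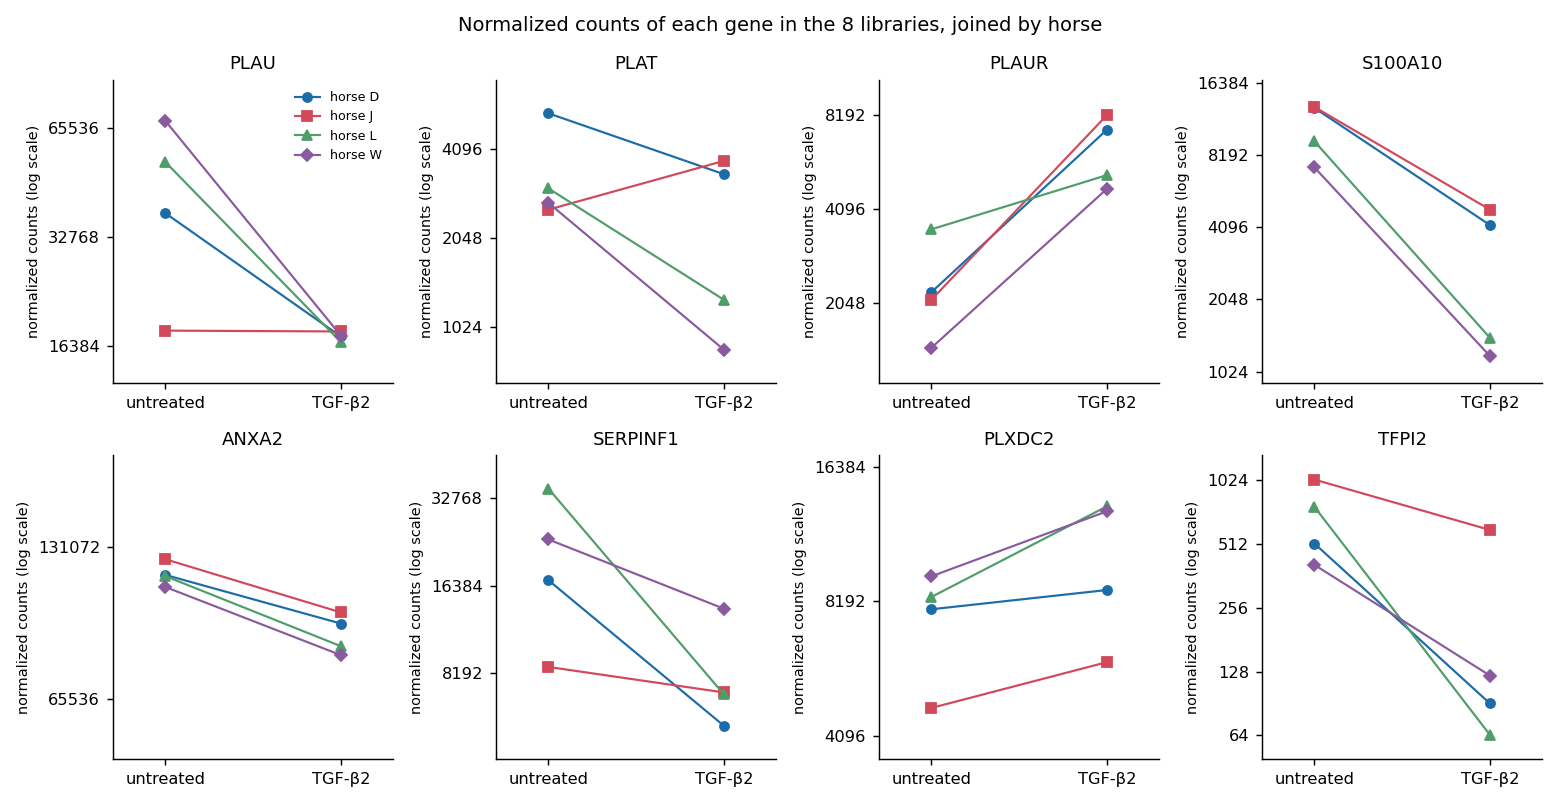
Normalized counts (log scale) of the 8 genes in the 8 libraries, with untreated on the left, TGF-β2-treated on the right and 1 line per horse. The 4 treated libraries of PLAU sit between 16754 and 17915, those of PLAUR lie above every untreated library, and those of S100A10 lie below.

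PLAU encodes urokinase, the secreted protease that converts plasminogen to plasmin at the cell surface. In untreated cells it had 38024 normalized counts in horse D, 18012 in J, 52657 in L and 68406 in W. After TGF-β2 it had 17353 in D, 17915 in J, 16754 in L and 17456 in W. The horses differed widely without treatment and hardly at all with it, and horse J alone was already at the treated level before treatment. The mean went from 44274.5 ± 21458 (SD, n = 4) to 17369.7 ± 477. The coefficient of variation was 48.5% in untreated and 2.75% in treated libraries, and 1.496% of all tested genes varied as little as PLAU, or less, among the treated libraries. The log2 fold change of PLAU was -1.19 (SE 0.36, limma, adjusted p = 0.0471). In single horses the log2 change was -1.13 in D, -0.01 in J, -1.65 in L and -1.97 in W. Without horse J the log2 fold change was -1.58 (limma, adjusted p = 0.00537), and without D, L or W the adjusted p was 0.182, 0.184 or 0.185, so that the call was lost without any 1 of these 3 horses. It was also lost after upper-quartile scaling (0.0556) and without the mean-variance trend of limma (0.0604), and over all alternatives the adjusted p ran from 0.00128 to 0.185.

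PLAT encodes tissue-type plasminogen activator, the protease best known for starting the breakdown of fibrin by making plasmin. Its level in untreated cells was 5421 normalized counts in horse D, 2554 in J, 3014 in L and 2692 in W. In treated cells it was 3369.6 in D, 3737 in J, 1263 in L and 855 in W. The treated library was lower in D, L and W and higher in J, and the groups overlapped. Across horses the log2 fold change of PLAT was -0.76 (95% interval -1.89 to 0.37), with limma's adjusted p at 0.307 without and 0.159 with a block for the horse, so that no change was shown and a decrease past the threshold lies within the interval. With horse J left out and the block in the model the log2 fold change was -1.20 (limma, adjusted p = 0.00924), and over all alternatives the adjusted p ran from 0.00924 to 0.593.

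The proportion of the 2 activators differed between some horses, and it was lower in each horse under treatment. The ratio of PLAU to PLAT normalized counts was 7.01 in D, 7.05 in J, 17.5 in L and 25.4 in W without treatment. With treatment it was 5.15 in D, 4.79 in J, 13.3 in L and 20.4 in W. Horses D and J shared a low ratio and L and W a high ratio in both groups, and the ratio declined by a similar amount in each horse, with log2 changes of -0.45 in D, -0.56 in J, -0.40 in L and -0.32 in W (mean -0.43 ± 0.10, SD, n = 4). A ratio within a library does not move with the scaling of that library, and it is given here as a description with no test.

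PLAUR encodes the urokinase receptor, a lipid-anchored protein that holds urokinase at the cell surface and binds vitronectin. Untreated libraries held 2213 normalized counts in horse D, 2093 in J, 3522 in L and 1467 in W. The treated libraries held 7356 in D, 8193 in J, 5259 in L and 4749 in W. Every treated library lay above every untreated library, and horse L, the highest without treatment, had the smallest rise. PLAUR rose from 2324 ± 863 to 6389 ± 1649 (SD, n = 4), and the log2 fold change of PLAUR was 1.49 (SE 0.28, limma, adjusted p = 0.00808). The change was 1.73 in D, 1.97 in J, 0.58 in L and 1.69 in W. The call was lost with horse D left out (limma, adjusted p = 0.0720, log2 fold change 1.41), and with W left out only where the block was in the model (0.0617), and over all alternatives the adjusted p ran from 2.67e-07 to 0.0720. The transcripts of the protease and its receptor therefore moved in opposite directions in mean, while PLAU hardly changed in horse J (log2 change -0.01). The ratio of PLAU to PLAUR was 17.2 in D, 8.605 in J, 14.95 in L and 46.6 in W before treatment and 2.36, 2.19, 3.19 and 3.68 after it, without overlap, and the mean log2 change of the ratio was -2.68 ± 0.75 (SD, n = 4).

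**Figure D2:**
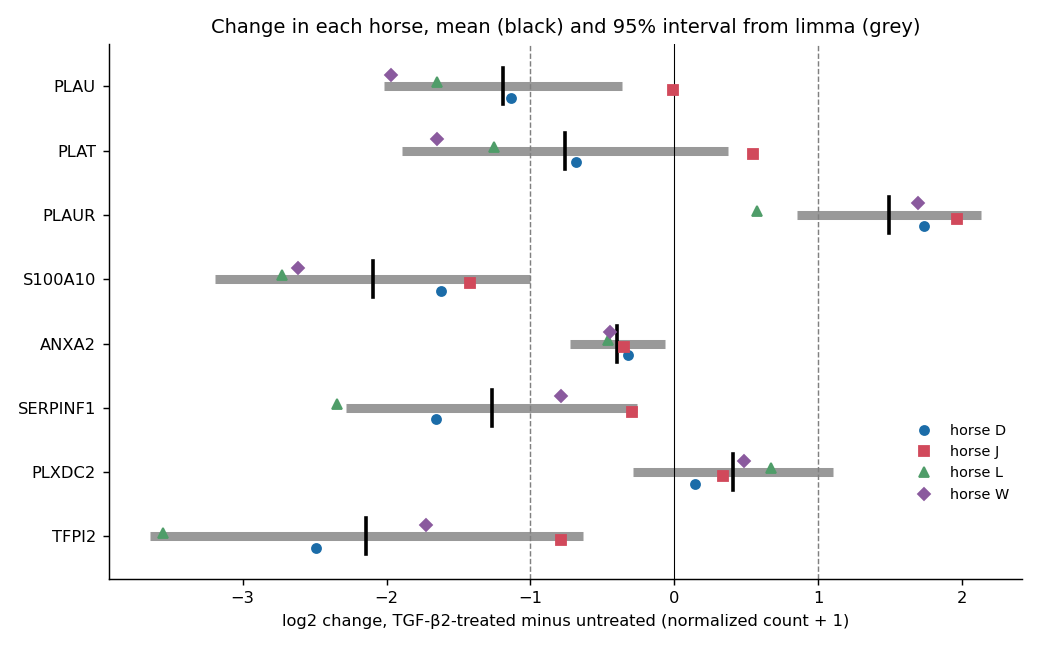
Log2 change from untreated to TGF-β2-treated cells for each gene, with points for the 4 horses, a black bar for the mean and a grey bar for the 95% interval of limma without a term for the horse. Horse J (squares) had the smallest change for PLAU (-0.01), SERPINF1 (-0.29) and TFPI2 (-0.79), and the dashed lines mark a log2 change of 1 in either direction.

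S100A10 and ANXA2 encode the subunits of a membrane complex. S100A10, a small protein of the S100 family that binds plasminogen and tissue-type activator, is carried to the membrane by annexin A2. S100A10 had 12921 normalized counts in horse D, 13036 in J, 9367 in L and 7287 in W without treatment. After treatment it had 4190.3 in D, 4861 in J, 1417 in L and 1189 in W. All treated libraries lay below all untreated ones, and L and W fell further than D and J. The mean fell from 10653 ± 2817 to 2915 ± 1883 (SD, n = 4). For S100A10 the log2 fold change was -2.10 (SE 0.48), with limma's adjusted p at 0.0172 without and 0.00479 with the block. In single horses it was -1.62 in D, -1.42 in J, -2.72 in L and -2.61 in W. Without a term for the horse the call was lost with D, L or W left out (adjusted p from limma 0.0654, 0.0759 and 0.0638), and with the block it was kept with any 1 horse left out. Over all alternatives the adjusted p for the log2 fold change of S100A10 ran from 2.55e-12 to 0.0759.

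ANXA2 was at 115594 normalized counts in untreated cells of horse D, 124184 in J, 114955 in L and 109398 in W. In treated cells it was at 92585 in D, 97428 in J, 83498 in L and 80163 in W. The groups did not overlap and the 4 horses changed by nearly the same amount, from -0.46 to -0.32 on the log2 scale. The log2 fold change of ANXA2 was -0.40 (95% interval -0.72 to -0.07), short of the threshold, and limma's adjusted p was 0.0816 without and 0.0760 with the block. DESeq2 on the recovered reads gave an adjusted p of 5.52e-04 for the same log2 fold change of -0.39, and over all alternatives the adjusted p ran from 1.38e-05 to 0.262. ANXA2 varied little between horses, with a coefficient of variation of 5.26% in untreated libraries, and 3.58% of all tested genes varied as little or less there.

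The order of the horses was J, D, L and W for S100A10 and for ANXA2, in untreated and in treated cells alike. With 1 library per horse and group, neighbours in this order cannot be tested. The correlation between S100A10 and ANXA2 over the 8 libraries was 0.98 (Pearson's r on the log2 scale), the highest among the 8 genes, and the points share the horse and the treatment. The 2 genes moved together in rank but not in size. The ratio of S100A10 to ANXA2 normalized counts was 0.112 in D, 0.105 in J, 0.0815 in L and 0.0666 in W in untreated cells and 0.0453, 0.0499, 0.0170 and 0.0148 in treated cells, a mean log2 change of -1.70 ± 0.60 (SD, n = 4). The ratio declined in all 4 horses and the groups did not overlap.

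**Figure D3:**
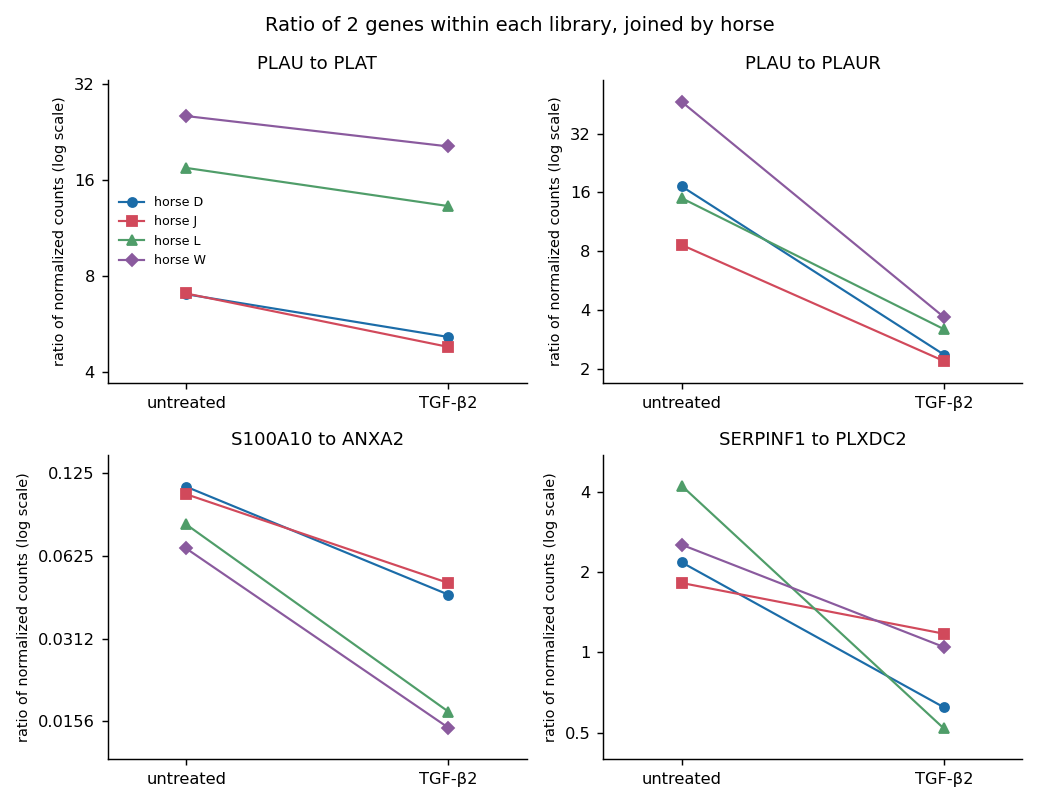
Ratio of the normalized counts of 2 genes in the same library (log scale), with untreated on the left, TGF-β2-treated on the right and 1 line per horse. The PLAU to PLAT lines run nearly parallel (mean log2 change -0.43), whereas the PLAU to PLAUR ratio was lower in every treated than in every untreated library (mean log2 change -2.68).

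SERPINF1 encodes pigment epithelium-derived factor, a secreted, collagen-binding serpin known as an inhibitor of angiogenesis. Its level was 17082 normalized counts in horse D, 8611 in J, 35217 in L and 23571 in W without treatment. With treatment it was 5414 in D, 7041 in J, 6938 in L and 13647 in W. It was lower after treatment in each horse, with log2 changes of -1.66 in D, -0.29 in J, -2.34 in L and -0.79 in W, but the untreated library of J lay within the treated range. Without the block SERPINF1 was not called, with a log2 fold change of SERPINF1 of -1.27 (95% interval -2.28 to -0.26, limma, adjusted p = 0.0718), and with the block it was called (0.0405). It was also called by DESeq2 with and without the horse, by edgeR with the horse, after total scaling and, in limma without the block, when horse J was left out (-1.60, adjusted p = 0.0313), and the adjusted p ran from 0.00147 to 0.256 over all alternatives. The call with the block was lost with D, L or W left out (limma, adjusted p 0.151, 0.0835 and 0.103). Without L the log2 fold change of SERPINF1 was -0.91.

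PLXDC2 encodes a transmembrane protein proposed as a receptor for pigment epithelium-derived factor, and it is not itself part of the plasminogen system. Untreated cells had 7869 normalized counts in horse D, 4735 in J, 8385 in L and 9325 in W, and treated cells 8689, 5993, 13363 and 13028. All 4 horses were higher with treatment, by 0.14 to 0.67 on the log2 scale, and J was lowest in both groups. The log2 fold change of PLXDC2 was 0.41, with a 95% interval of -0.28 to 1.10 without and 0.14 to 0.68 with the block. Limma's adjusted p was 0.372 without and 0.0398 with the block, and the log2 fold change of PLXDC2 was below the threshold in both fits. After scaling every library to the same total it was 0.10. The ratio of SERPINF1 to PLXDC2 was lower in all 4 treated libraries, 0.519 to 1.17, than in the untreated ones, 1.82 to 4.20. Of 5 other receptors proposed for pigment epithelium-derived factor, PLXDC1, PNPLA2, LRP6, RPSA and ATP5F1B, 0 were called by limma with or without the block, by DESeq2 or by edgeR, 0 had an unadjusted p under 0.05 in limma, and their log2 fold changes ran from -0.11 to 0.23. Limma without the block called 11.5% of all tested genes, so that 0 of 5 is near this share.

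TFPI2 encodes a Kunitz-type inhibitor of plasmin and related proteases that is deposited in the extracellular matrix. It had few reads. Untreated cells had 514 normalized counts in horse D, 1031 in J, 766 in L and 408 in W, and treated cells 90.5 in D, 596 in J, 64.4 in L and 123 in W. The log2 change was -2.49 in D, -0.79 in J, -3.55 in L and -1.73 in W, and the treated library of J alone lay within the untreated range. TFPI2 was called with a log2 fold change of -2.14 (SE 0.66), limma's adjusted p being 0.0484 without and 0.0197 with the block. Without the horse the count tests on recovered reads missed the call, with an adjusted p of 0.05003 from DESeq2 and 0.136 from edgeR, and with the horse both made it. Without the block the log2 fold change of TFPI2 was no longer called with D, L or W left out (limma, adjusted p 0.191, 0.193 and 0.150) or without the mean-variance trend (0.0609), it was -2.59 without J (0.00422), and over all alternatives the adjusted p ran from 1.39e-05 to 0.193. With the block TFPI2 was still lost with D or W left out (limma, adjusted p 0.0892 and 0.0785), and it was kept with L or J left out (0.0379 and 0.00635).

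Of a list of 18 other genes of the plasminogen system, 9 had rows and were tested, and 0 of the 9 were called by limma without the block, by DESeq2 or by edgeR, although 3 had an unadjusted p under 0.05 in limma. Over all tested genes limma without the block called 11.5%, so that 0 of 9 is near this share. The log2 fold changes of the 9 ran from -1.57 to 1.15, with a median of 0.32 against 0.01 over all tested genes. With the block, VLDLR, an endocytic receptor of the low-density lipoprotein receptor family, was called (log2 fold change 1.15, limma, adjusted p = 0.0751 without and 0.0376 with the block), and it is named after its values were seen. DESeq2 and edgeR with the horse each called 2 of the 9, VLDLR higher and SERPINA5, a serpin that inhibits activated protein C and urokinase, lower (adjusted p = 0.0123 and 0.0399 for SERPINA5). SERPINA5 had few reads, with 3.48 to 182 normalized counts in untreated and 2.38 to 32.1 in treated libraries. It was not called by limma (adjusted p = 0.390 without and 0.0580 with the block). LRP1, a clearance receptor of the same family, had a log2 fold change of 0.35 (limma, adjusted p = 0.672). ENO1, an enzyme of glycolysis that also binds plasminogen at the cell surface, had 111624 and 165779 mean normalized counts and a log2 fold change of 0.58 (limma, adjusted p = 0.0428), below the fold change threshold. PLG itself was not analysed here.

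**Figure D4:**
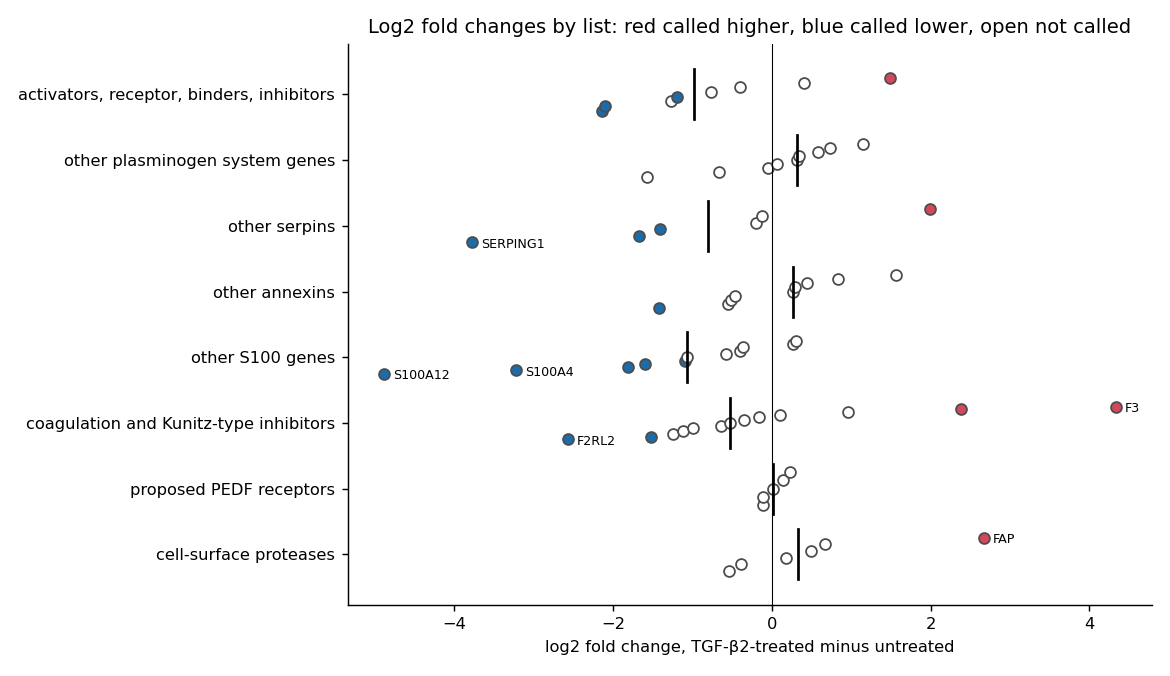
Log2 fold changes (limma, TGF-β2-treated minus untreated) of the 8 genes in the top row and of 7 related lists, 1 point per tested gene, red where called higher, blue where called lower and open where not called, with a black bar at each list's median. The 8 genes have a median of -0.98 and the 11 tested S100 genes one of -1.07, whereas the 9 other annexins have one of 0.26.

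Among the relatives of the 8 genes by family, 1 of 6 other serpins was called higher and 3 lower, with a median log2 fold change of -0.80. The 6 leave out SERPINA5 and SERPINI1, which were counted among the plasminogen system genes. Neither was called by limma without the block (adjusted p = 0.390 and 0.577). Over all tested genes limma without the block called 5.59% higher and 5.87% lower, the background for the counts of each family. SERPINH1, an endoplasmic reticulum chaperone of collagen, rose (1.99). SERPING1, the inhibitor of the first complement proteases, fell (-3.77), as did the intracellular inhibitors SERPINB6 (-1.67) and SERPINB9 (-1.40). SERPINB6 was no longer called by limma without the block with D, L or W left out, and with the block it was lost with D or W left out. Of 11 tested symbols beginning with S100 other than S100A10, 5 were called lower and none higher, and with the block S100A14 was also called lower (-1.07, limma, adjusted p = 0.0935 without and 0.0267 with the block). The 5 were S100A12 (-4.88), S100A4 (-3.21), S100A1 (-1.80), S100A13 (-1.60) and S100A6 (-1.09). S100A12 had few reads, with 100.3 mean normalized counts in untreated and 4.58 in treated libraries, and its fold change depends on the pseudocount. With 1 horse left out 2 to 5 of the S100 genes were called, 2 of them without D. Without the block S100A1 was no longer called with D, L or W left out, S100A12 with D or L left out, and S100A6 with D, J or W left out (-0.95 without J). The list also took in S100PBP, which encodes a binding partner and not an S100 protein. S100A10 lay within the range of the S100 genes called lower. Of the 9 other annexins, ANXA4 was called lower (-1.42) and none was called higher. With the block ANXA3 was called higher (1.56, limma, adjusted p = 0.135 without and 0.0125 with the block), and 1 to 3 annexins were called with 1 horse left out, 3 of them without J. ANXA1, a phospholipid-binding mediator of the resolution of inflammation, had a log2 fold change of 0.26 (limma, adjusted p = 0.470), or -0.047 after total scaling.

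For each of the 8 genes, the 2 tested genes with a mean of at least 100 normalized counts whose pattern over the 8 libraries was most like it were identified by Pearson's r on the log2 scale, as a description. S100A10 was most like GPRC5A (0.99) and PGD (0.99), ANXA2 was most like IDH3G (0.99) and METRNL (0.98), and SERPINF1 was most like ACAA2 (0.99) and EPHB2 (0.98). PLAU was most like the uncharacterised LOC102147743 (0.99) and LOC100070487 (0.99), PLAUR like RCC2 (0.98) and RELT (0.98), and PLXDC2 like SPEG (0.98) and DMXL2 (0.98). PLAT had no gene closer than VEZF1 (0.97) and GNL1 (0.97). TFPI2 was most like MMP9 (0.98), which encodes a matrix metalloproteinase, and MEPCE (0.97). MMP9 and TFPI2 each kept a high level in the treated library of horse J, 1947 normalized counts for MMP9 against 256 to 660 in the other treated libraries. Within the 8 genes, SERPINF1 and PLAU followed each other after the S100A10 and ANXA2 pair (r = 0.88, n = 8 libraries that share horses), and both were lowest in horse J among the untreated libraries.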

How the data were processed

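Poly(A)-selected RNA of 8 libraries (4 horses, untreated and TGF-β2-treated) was analysed. Trimming by the authors used Trimmomatic 0.36. They mapped to EquCab 3.0 by STAR 2.5.2b, counted unique hits per gene with featureCounts (Subread 1.5.2) and deposited DESeq2-normalized counts, a signal of gene counts divided by 1 size factor per library. All values (100%) were whole multiples of the value of 1 read (tolerance 0.001 reads), so reads were recovered. The 1 row with no name (at most 0.0531% of a library) was left out. Symbols were used as deposited, no coordinates or sequences are given, SERPINE2 was not analysed here, and 1 further gene of the plasminogen system is not reported here.

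The main test was limma 3.58.1 (lmFit, eBayes with trend, R 4.3.3) on log2(normalized count + 1), genes with at least 10 in at least 4 libraries, with Benjamini-Hochberg adjustment over all tested genes and no term for the horse, since the methods name none. Folds on this scale understate changes of low genes. Deviations from the group means correlated between the pair of libraries of a horse (r 0.386 to 0.609 in all 4 pairs, at most 0.116 between horses), so the horse pairs the samples. Blocked values are given for calls that change among the 8 genes and the genes of the related lists. DESeq2 1.42.0 and edgeR 4.0.16 were run on the recovered reads. The procedures were tested on simulated data. Named were the 8 genes, the called genes (at most 5) and the most abundant gene of each related list, and the 2 genes most like each of the 8. The genes and lists were chosen with earlier results of these data known. PCR duplicates were not told apart from independent molecules.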

Additional observations from a re-analysis of the deposited data

Results flagged for a closer look

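For the 8 genes, the highest and the lowest library of each group of 4 were compared with the rest of the group, in 16 groups, and 2 libraries stood far from the others. Chance gives about 1 in 20 groups. The untreated library of horse D had 5421 normalized counts of PLAT, and the next untreated library 3014. The gap was 0.840 of the whole range, just past the limit for 4 samples. The treated library of horse J had 596 normalized counts of TFPI2, and the next treated library 123. The gap was 0.891 of the whole range.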

How the results depend on the processing

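The direction of the log2 fold change held for all 8 genes under all 23 alternatives, but in several of these it could not turn. A change of filter, trend, block or threshold in limma left the log2 fold change as it was. Each limma fit with the block and 1 horse left out repeated the estimate of the same fit without the block. Of the 184 log2 fold changes 151 kept their side of the call, 25 lost it and 8 gained it. The number of genes called was 1709, and it was 885 with an adjusted p under 0.01 and 3403 with no fold change threshold, and 718 to 2442 with 1 horse left out, the lowest being 718 without D and 795 without W. Of the 8 genes, 1 was called higher and 3 lower. The number lower was 0 with an adjusted p under 0.01 and 1 without the mean-variance trend (limma), and with 1 horse left out 0 to 1 were called higher and 0 to 5 lower, with fewer samples in each fit. Without horse D, 0 of the 8 were called by limma with no block. With the replicate block 2108 genes were called and 4 of the 8 were called lower, SERPINF1 being the addition, and the block changed no other call among the 8 genes. Scaling to equal totals moved the median log2 fold change of all genes from 0.01 to -0.30 and the share of calls that were higher from 48.8% to 27.6%, and called 1 of the 8 genes higher and 4 lower. Of 13198 genes not called, 3530 turned sign with that scaling, including ANXA1 at -0.047, RPSA at -0.084 and HTRA1 at -0.14. With 1 horse left out, APP ran from -0.39 to 0.015 and HTRA1 from -0.048 to 0.31. The causes were not tested.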

Other observations

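Genes of coagulation and of the Kunitz-type inhibitors, which meet the plasminogen system at the cell surface, were also measured. Of 13 tested, 2 were called higher and 2 lower by limma, with a median log2 fold change of -0.52. Limma without the block called 5.59% of all tested genes higher and 5.87% lower. F3, tissue factor, the initiator of coagulation, rose from 909.9 ± 497 to 15562 ± 2226 normalized counts (SD, n = 4) and in all 4 horses, and its log2 fold change was 4.33 (SE 0.48, limma, adjusted p = 0.00129). Of the protease-activated receptors, F2RL1 was called higher (2.38) and F2RL2 lower (-2.56). PROS1, the anticoagulant protein S, was called lower (-1.52). APP, which has Kunitz-containing isoforms, had a log2 fold change of -0.16. With 1 horse left out 1 to 7 of the 13 were called, and without the block 1 was called without D and 1 without W. F3 was called with any 1 horse left out. Without the block F2RL1 was not called with any 1 horse left out, nor by edgeR (adjusted p = 0.0524) or after total scaling (limma, 0.0606), F2RL2 was not called with D, J or W left out, and PROS1 was not called with D, L or W left out. With the horse as a block, TFPI and PROCR, named after their values were seen, were called lower as well (limma, adjusted p = 0.00309 and 0.0251). Of 6 other tested proteases of the cell surface, FAP was the 1 called, higher in all 4 horses, from 1261 ± 849 to 7110.4 ± 1496 normalized counts (limma, adjusted p = 0.00294), and HTRA1 had a log2 fold change of 0.18.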
